A study of Mus musculus with 16 samples.

Results

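Homeostatic mature splenic type 1 conventional dendritic cells (cDC1s) of 2 genotypes of floxed mice, Xbp1flIre1fl and Xbp1fl, were compared by bulk RNA sequencing. All 4 mature libraries of each genotype were taken by their labels, which gave 8 of the 16 libraries of the series. The other 8 libraries, of immature cDC1s from the same genotypes, were used to share the estimate of the spread and to set the same contrast beside the mature one. The mice were on a C57BL6 background and were kept at steady state, and the cells were sorted by flow cytometry from spleen, 5000 to 50000 per sample. Both genotypes carried loxP-flanked Xbp1, and Xbp1flIre1fl mice also carried loxP-flanked Ire1, whose gene symbol is Ern1. According to the series description neither gene was deleted, no Cre recombinase is named, and all the mice count as functionally wild type. The labels give neither the age nor the number of the mice, nor whether the genotypes were littermates, and line, housing and allele cannot be told apart here. They do not say that libraries came from separate mice either, so the p-values reflect how far these libraries scatter, which may be technical.

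cDC1s take up dying cells and present their antigens on MHC class I to CD8 T cells. Without infection some of them mature, switch on the chemokine receptor CCR7 and move towards T cells. IRE1 is a sensor of unfolded proteins in the endoplasmic reticulum (ER): it splices the mRNA of the transcription factor XBP1, which raises genes for protein folding and secretion, and it can cut other mRNAs in a process called RIDD. Dendritic cells are known for a constantly active IRE1 pathway. The comparison shows how far 2 lines that serve as functionally normal controls differ in mature cDC1s.

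Mature libraries held 13948232 to 16572576 counts, and 11978 genes passed the filter on low counts. A floor of 3 counts was worth 0.181 to 0.215 CPM (counts scaled to a common library size). Levels below are CPM with TMM-scaled library sizes. All 26 listed cDC1 identity genes and all 44 maturation genes passed that filter. The maturation genes summed to 21784 to 45560 CPM in mature and 3530 to 4941 CPM in immature libraries, without overlap, and the identity genes to 12842 to 18584 CPM and 19279 to 21293 CPM. By expression of Xist and of Y-linked genes, each genotype held 3 male libraries and 1 female library per stage (Xbp1fl replicate 4, Xbp1flIre1fl replicate 3).

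The genes under the floxed alleles did not differ detectably in mature cDC1s. Ern1 lies at chr11:106394650-106487852 on the minus strand (mm10) and Xbp1 at chr11:5520659-5525893 on the plus strand. Ern1 was at 25.5, 22.8, 25.6 and 25 CPM in the Xbp1fl libraries and at 23.5, 22.2, 19.5 and 28.4 CPM in the Xbp1flIre1fl libraries. The groups overlapped, and the log2 fold change was -0.08 ± 0.11 (SE; adjusted p = 0.968, 95% interval -0.31 to 0.15). Here and below a log2 fold change is Xbp1flIre1fl over Xbp1fl, and adjusted p is that of edgeR's quasi-likelihood test over all genes tested. Xbp1 was at 84.5, 90.6, 81.7 and 69.1 CPM in Xbp1fl and 91.2, 86.2, 72.8 and 90.9 CPM in Xbp1flIre1fl, which also overlapped (0.07 ± 0.09, adjusted p = 0.964). In immature cDC1s the median of the 2 genes was -0.18. There 1 of them was lower at an unadjusted p under 0.05 in the same test, and neither was called. Counts per gene do not show whether a floxed exon was read or whether Xbp1 mRNA was spliced.

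Few genes were called as different between the genotypes, and a gene not called is not thereby shown to be equal. At an adjusted p under 0.05, 17 of 11978 genes were called (0.142%), 6 higher (0.0501%) and 11 lower (0.0918%) in Xbp1flIre1fl. Of these, 2 were higher and 8 lower by over 2-fold. All 17 had 4 against 4 libraries without overlap, which 307 genes did over the whole table (2.56%; 173 higher, 1.44%, and 134 lower, 1.12%). The median log2 fold change over all genes was -0.0031, with quartiles of -0.09 and 0.10, and 49.1% of genes were above 0. The median 95% interval reached 0.27 to either side of its estimate. At an unadjusted p under 0.05 there were 754 genes, 491 higher (4.1%) and 263 lower (2.2%). Fitted on the 8 mature libraries alone, 10 genes were called, all among the 17, and DESeq2 called 36, with all 17 among them. At a share of 0.142% a gene list would hold hardly any call. A count of 0 called in a list below therefore says little about that list.

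Promoters are printed for Ern1 and for 2 of the called genes that lie near it on chromosome 11, Arf2 (lower) and Med1 (higher), because XBP1 and ATF6 are known to bind elements that hold the letters CCACG. The sequences run 5′ to 3′ on the gene's strand, from 250 bases before to 50 bases after the start, from RefSeq on GRCm38.p6: Ern1 chr11:106487747-106488046 (minus strand), Arf2 chr11:103966475-103966774 (plus strand, the first of 2 entries) and Med1 chr11:98192857-98193156 (minus strand). Capitals mark CCACG or its reverse complement CGTGG.
Ern1: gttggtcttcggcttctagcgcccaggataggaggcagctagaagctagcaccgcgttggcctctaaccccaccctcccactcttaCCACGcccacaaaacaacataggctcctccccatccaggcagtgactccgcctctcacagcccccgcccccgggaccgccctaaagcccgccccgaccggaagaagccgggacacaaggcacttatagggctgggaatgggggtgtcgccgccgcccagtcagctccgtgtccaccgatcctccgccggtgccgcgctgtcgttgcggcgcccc
Arf2: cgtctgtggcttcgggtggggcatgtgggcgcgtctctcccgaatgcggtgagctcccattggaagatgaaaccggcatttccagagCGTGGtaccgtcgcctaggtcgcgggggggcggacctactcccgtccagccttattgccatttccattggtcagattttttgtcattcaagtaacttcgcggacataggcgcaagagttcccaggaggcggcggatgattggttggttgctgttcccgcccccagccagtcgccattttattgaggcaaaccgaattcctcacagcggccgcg
Med1: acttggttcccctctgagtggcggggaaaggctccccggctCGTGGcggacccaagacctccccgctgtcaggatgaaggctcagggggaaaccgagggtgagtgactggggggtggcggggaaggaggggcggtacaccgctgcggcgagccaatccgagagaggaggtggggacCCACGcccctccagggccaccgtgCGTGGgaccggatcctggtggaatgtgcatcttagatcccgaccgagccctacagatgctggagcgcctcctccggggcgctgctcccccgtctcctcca
In the entries shown Ern1 and Arf2 each held 1 such box and Med1 held 3. The second Arf2 entry (chr11:103966621-103966920) held 0. In the shares that follow, a gene counts if any of its entries holds a match. Among the called genes with a promoter entry, 3 of 4 higher ones (75%) and 4 of 7 lower ones (57.1%) held at least 1 CCACG box on either strand, against 52.0% of the 9209 tested genes with an entry. The core of the unfolded protein response element (UPRE), TGACGTG, was in 0 of these 11 promoters and in 3.29% of all. The ER stress response element (CCAAT, 9 bases, CCACG, so that each match also holds a CCACG box) was in 0 of 11 and in 0.174% of all. A match is a description of letters and not a binding site.

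The 2 differences with the smallest p were large losses. Rps4l is annotated as a transcribed processed pseudogene at chr6:148354656-148355598, a copy related to the X-linked ribosomal protein gene Rps4x. It was at 47.5, 63.3, 59.5 and 55.8 CPM in Xbp1fl and at 19.3, 16.1, 15.2 and 14.2 CPM in Xbp1flIre1fl, 3.49-fold lower (log2 fold change -1.80 ± 0.11, adjusted p = 3.13e-08). Because it resembles its parent gene and lies antisense inside Tmtc1, and neither the handling of shared reads nor the use of strand is stated, its count is uncertain. Arf2, a small GTPase of the ADP-ribosylation factor family that recruits vesicle coats, lies at chr11:103966739-103985337. It was at 230, 160, 180 and 199 CPM in Xbp1fl and at 45.3, 44.1, 49.5 and 34.2 CPM in Xbp1flIre1fl, 4.44-fold lower (-2.15 ± 0.13, adjusted p = 6.09e-08). Every Xbp1flIre1fl library lay far below every Xbp1fl library.

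The other named genes that fell were Cyb561, Arl5c, Pctp, Tmem88, Krtcap3, Zfp951 and Wipf2, the last given with the immature cells. Cyb561, a membrane protein that carries electrons from ascorbate in secretory vesicles, was at 10.2, 11.1, 5.98 and 8.61 CPM in Xbp1fl and 2.09, 2.32, 2.08 and 2.71 CPM in Xbp1flIre1fl (3.89-fold lower, adjusted p = 2.46e-05). Arl5c, an ARF-like GTPase, was at 352, 349, 417 and 370 CPM in Xbp1fl and at 192, 134, 201 and 101 CPM in Xbp1flIre1fl (log2 fold change -1.24 ± 0.18, adjusted p = 0.00343). Its lowest values were those of Xbp1flIre1fl replicates 2 and 4. Pctp, a phosphatidylcholine transfer protein, was at 19.1 to 22.9 CPM in Xbp1fl and 9.72 to 13.8 CPM in Xbp1flIre1fl (-0.78 ± 0.11, adjusted p = 0.0022). Tmem88, a membrane protein known to bind the Wnt pathway protein Dishevelled, was at 7.70 to 11.6 CPM in Xbp1fl and 2.90 to 5.11 CPM in Xbp1flIre1fl (-1.27 ± 0.22, adjusted p = 0.0161). The losses in these genes were thus between 1.72-fold (Pctp) and 3.89-fold (Cyb561), with no library of one genotype inside the range of the other. Krtcap3 fell from 11.1 ± 1.15 to 3.03 ± 0.957 CPM (SD, n = 4; adjusted p = 2.50e-04), and Zfp951, which encodes a zinc finger protein, from 19.4 ± 1.97 to 9.76 ± 1.61 CPM (adjusted p = 0.00406). Tmem88 shares 162 bases with Naa38 on the other strand.

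The 6 genes that rose were Crnkl1, Naa20, Med1, Lsm12, Acbd4 and Acsf2. Crnkl1, a spliceosome protein, was at 15.4, 15.5, 16.1 and 17.1 CPM in Xbp1fl and at 30.8, 31.1, 32.8 and 36.1 CPM in Xbp1flIre1fl (1.03 ± 0.10, adjusted p = 2.46e-05). Naa20, the catalytic subunit of the N-terminal acetyltransferase NatB, rose alongside it, from 9.96 to 11.7 CPM in Xbp1fl to 18.8 to 24.9 CPM in Xbp1flIre1fl (0.99 ± 0.11, adjusted p = 1.90e-04). These 2 genes are neighbours on chromosome 2 (chr2:145902099-145916425 and chr2:145917479-145935014), facing each other tail to tail with 1053 bases between their annotated ends. Med1, a Mediator subunit through which nuclear receptors contact RNA polymerase II, was at 81.1, 70.6, 82.6 and 79.8 CPM in Xbp1fl and 109, 121, 119 and 126 CPM in Xbp1flIre1fl (0.60 ± 0.07, adjusted p = 2.83e-04). Lsm12, an Lsm-domain protein, rose from 53.6 ± 3.28 to 72.5 ± 2.51 CPM (adjusted p = 0.00221). The other two handle acyl-CoA. Acbd4, an acyl-CoA-binding protein, was at 2.89 to 4.46 CPM in Xbp1fl and 6.93 to 8.83 CPM in Xbp1flIre1fl (1.15 ± 0.17, adjusted p = 0.00343). Acsf2, an acyl-CoA synthetase, was at 25.3 to 36.4 CPM in Xbp1fl and 43.1 to 52.3 CPM in Xbp1flIre1fl (0.60 ± 0.11, adjusted p = 0.0219). Crnkl1 shares 231 bases with Cfap61, Acsf2 4081 bases with Chad and Med1 742 bases with the pseudogene Gm11604, each on the other strand, so without stated strand use their reads cannot be told apart there.

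A pair of the called genes had few counts and fell outside the naming rule. They are named here after their values were seen. C130046K22Rik, a non-coding transcript on chromosome 11, had 19, 33, 28 and 20 counts in Xbp1fl and 2, 7, 2 and 5 in Xbp1flIre1fl (-2.63 ± 0.40, adjusted p = 0.00343), and it shares 175 bases with Gosr2 on the other strand. 3830403N18Rik, an X-linked gene with near-identical copies, had 44, 35, 25 and 26 counts in Xbp1fl and 0, 3, 5 and 3 in Xbp1flIre1fl (-3.54 ± 0.62, adjusted p = 0.0156). The next genes by p, also named after their values were seen, were Nudcd1 (0.43, adjusted p = 0.0528), Nsf, the ATPase that takes apart SNARE complexes (-0.31, adjusted p = 0.0675), and the semaphorin receptor gene Plxnb2 (0.60, adjusted p = 0.0675).

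**Figure D1:**
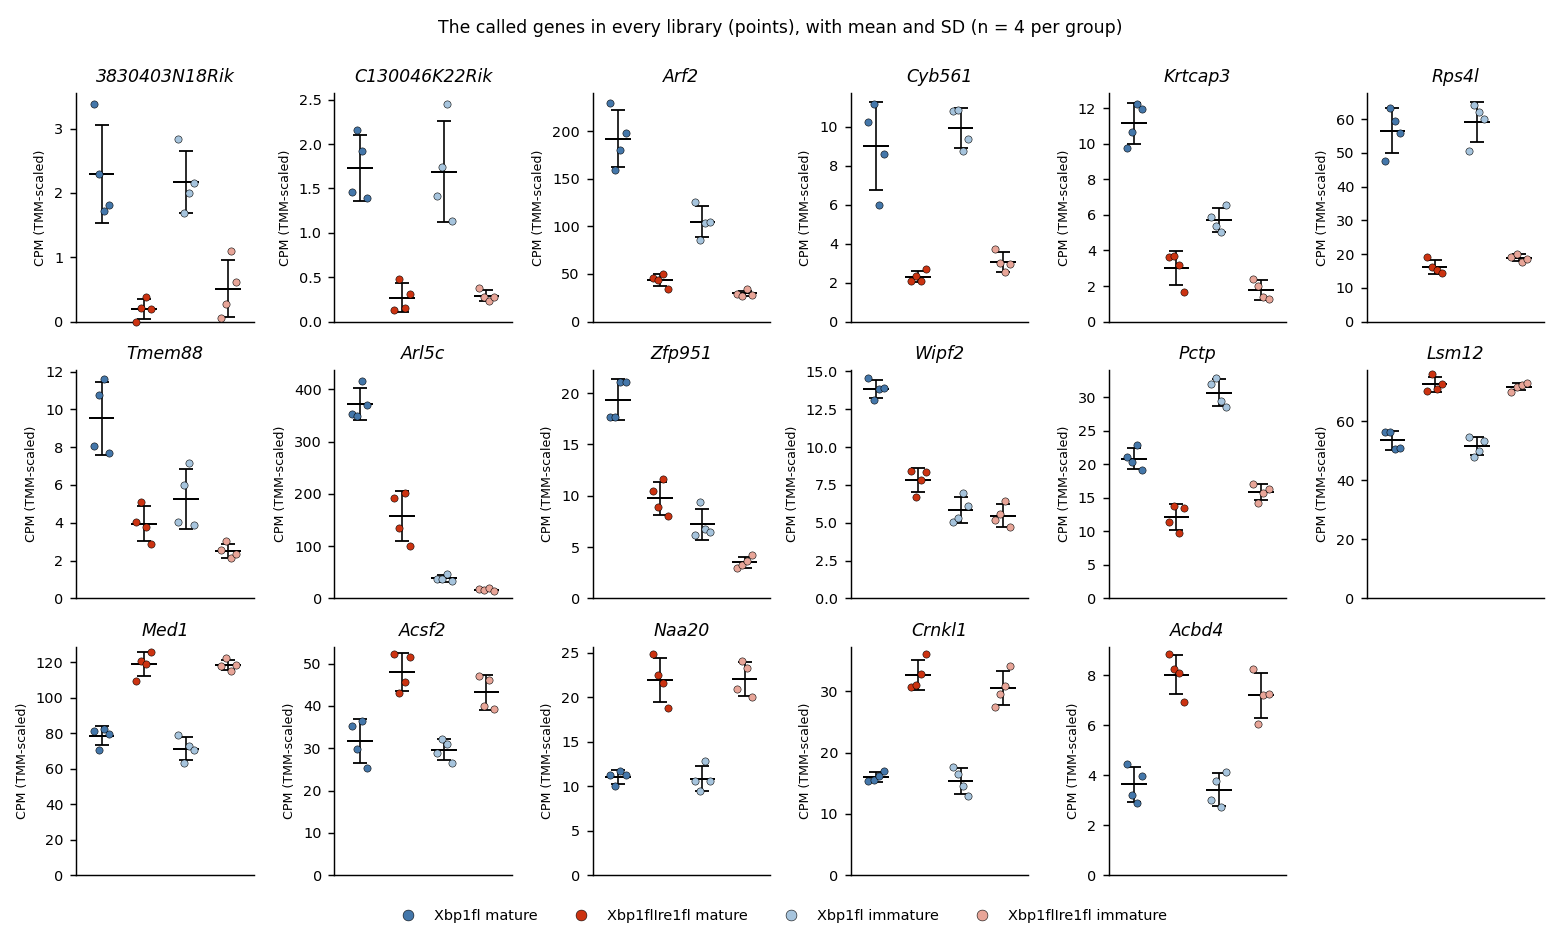
TMM-scaled CPM (y axes, linear from 0) of the 17 genes called between Xbp1fl and Xbp1flIre1fl mature cDC1s, ordered from the most negative to the most positive log2 fold change. Points are libraries (4 per group), lines the mean and bars the SD, and the pale points are the immature libraries: in each gene the 4 mature libraries of a genotype lie apart from those of the other, and in Wipf2 the immature libraries overlap.

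The called genes were concentrated on 1 chromosome. Of the 17, 11 (64.7%) lay on chromosome 11, which held 8.56% of the tested genes with a position. Of these, 10 fell into 16 Mb on the centromeric side of Ern1, from Pctp to Cyb561 (chr11:89982665-105953336, a stretch delimited after the calls were seen), among 187 tested genes, with 4 higher and 6 lower. Within 5 Mb of Ern1 5 of 101 genes were called (4.95%), within 10 Mb 8 of 254 (3.15%) and within 20 Mb 10 of 418 (2.39%), against 0.0607% of genes farther away or on other chromosomes. The 20 Mb window was added after the data were seen. Cyb561 was the nearest at 0.441 Mb, followed by Arf2 at 2.409 Mb, C130046K22Rik at 2.672 Mb, Acbd4 at 3.282 Mb and Lsm12 at 4.209 Mb.

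On chromosome 11 the genes called in mature cDC1s all lay on the centromeric side of Ern1. Within 20 Mb on the centromeric side 10 of 238 genes were called and on the telomeric side 0 of 179. Those 179 were all the tested genes on the telomeric side of the chromosome. At an unadjusted p under 0.05 the shares were 20.6% and 4.47%, against 6.03% of genes farther away or on other chromosomes. Within 5 Mb the share was 26.4% on the centromeric side (19 of 72 genes) and 10.7% on the telomeric side (3 of 28 genes). Within 10 Mb of Xbp1, whose floxed allele both genotypes carry, 0 of 75 genes were called, and 5 had an unadjusted p under 0.05. Outside chromosome 11, 6 of 10933 genes were called (0.0549%): Rps4l, Crnkl1, Naa20, Krtcap3, Zfp951 and 3830403N18Rik. Chromosome 19 held no called gene, but 11% of its 437 tested genes had an unadjusted p under 0.05. Whether sequence around the floxed Ern1 allele differs between the lines was not tested, since no genotype of the region can be read from counts.

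**Figure D2:**
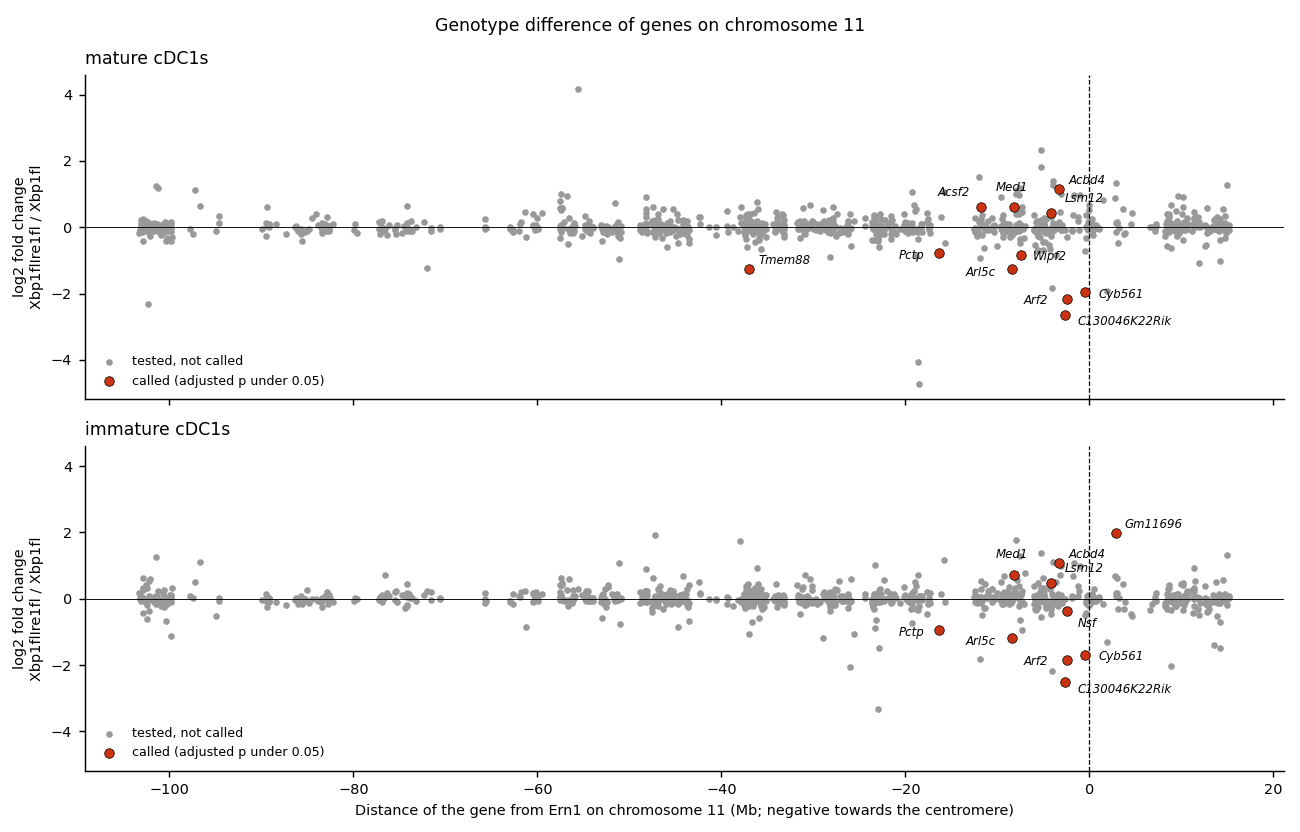
Log2 fold change (y axis, Xbp1flIre1fl over Xbp1fl) of the tested genes of chromosome 11 against their distance from Ern1 in Mb (x axis, dashed line at Ern1), in mature cDC1s (top) and immature cDC1s (bottom). Red points are called genes, grey points are not: 10 of the 11 called in mature cDC1s lie within 20 Mb on the centromeric side, and Tmem88 lies 36.996 Mb away.

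The same contrast in immature cDC1s called 16 genes (0.134%), 7 higher (0.0584%) and 9 lower (0.0751%). Of these, 13 were shared with the mature contrast, 76.5% of the mature and 81.25% of the immature calls, all in the same direction. All 17 genes called in mature cDC1s had the same sign in immature cDC1s. The 2 contrasts share no library, but same-numbered libraries of a genotype deviated together across stages (r of 0.290 to 0.604), so they are not independent samples. Arf2 was at 86.1 to 126 CPM in immature Xbp1fl and 26.9 to 33.8 CPM in immature Xbp1flIre1fl libraries. Rps4l was at 50.5 to 64.0 and 17.5 to 20.1 CPM. Neither overlapped. Nsf, Hivep3 and Gm11696 passed in immature cells alone, with log2 fold changes of -0.36, 0.60 and 1.98 there and -0.31, 0.37 and 1.33 in mature cells. Gm11696 lies 2.865 Mb from Ern1 on the telomeric side.

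No gene passed the test of the difference between the 2 stages (the interaction). At an adjusted p under 0.05 there were 0 of 11978 (0%) by edgeR and 0 by DESeq2. At edgeR's unadjusted p under 0.05 there were 329 (2.75%). The main fit had no term for the pairing of libraries across stages, which can make interaction p-values too large. Of the 17 genes called in mature cells 1 had an unadjusted interaction p under 0.05, Wipf2, a WASP-interacting protein of the actin cytoskeleton. It was at 14.6, 13.1, 13.8 and 13.9 CPM in mature Xbp1fl and at 8.42, 6.68, 7.79 and 8.32 CPM in mature Xbp1flIre1fl libraries (-0.83 ± 0.13, adjusted p = 0.00518). In immature libraries it was at 5.05, 5.30, 6.97 and 6.08 CPM in Xbp1fl and 5.15, 5.6, 6.44 and 4.69 CPM in Xbp1flIre1fl, which overlapped (-0.10). The interaction was -0.73 ± 0.19 (unadjusted p = 0.0011, adjusted p = 1.00). By size the interaction was larger in 3830403N18Rik (-1.49 ± 0.83, unadjusted p = 0.0902), which has few counts. Nudcd1, near the threshold in mature cells, had a log2 fold change of -0.05 in immature cells (interaction 0.48 ± 0.12, adjusted p = 1.00). Arl5c, lower in immature than in mature cells of both genotypes, was also lower in Xbp1flIre1fl at both stages (interaction -0.06 ± 0.26), at 32.9 to 46.7 CPM in immature Xbp1fl and 14.4 to 19.2 CPM in immature Xbp1flIre1fl.

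**Figure D3:**
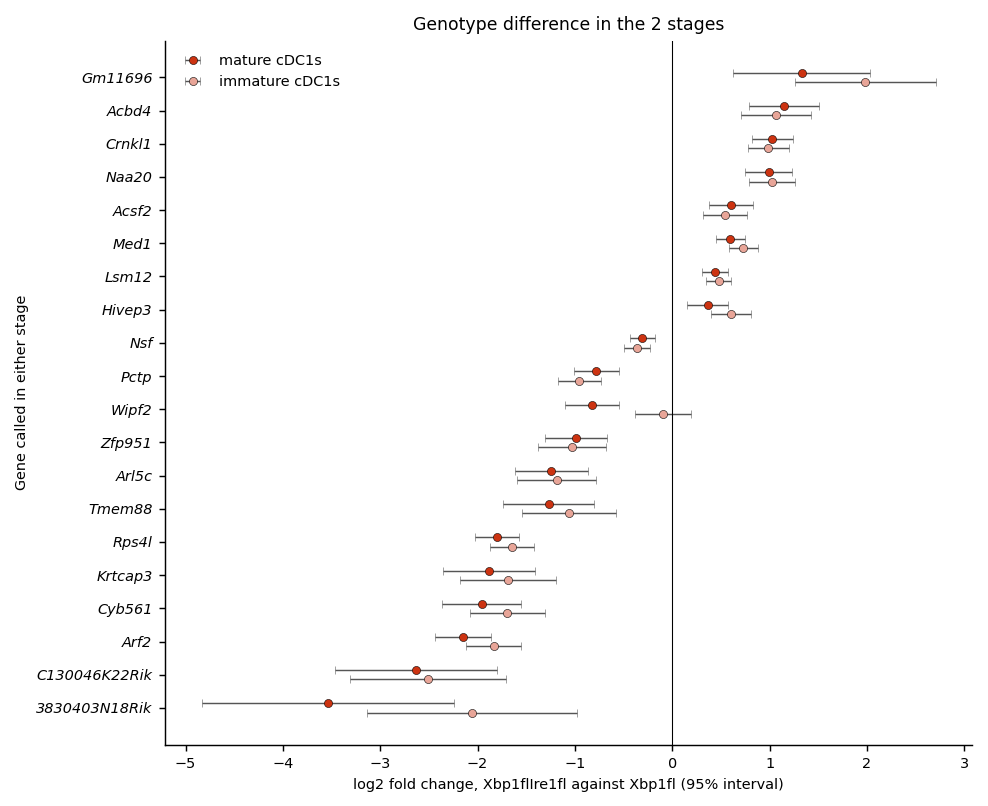
Log2 fold change with its 95% interval (x axis, Xbp1flIre1fl over Xbp1fl) of the 20 genes called in either stage (y axis), in mature (dark points) and immature cDC1s (pale points). The intervals of the stages overlap for every gene shown but Wipf2, which is at -0.83 in mature and -0.10 in immature cells.

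Genes of the IRE1-XBP1 pathway and of the rest of the unfolded protein response were followed through 4 lists. None of the 14 sensors and transducers of the unfolded protein response was called (median -0.07), nor any of 40 XBP1 targets and ER folding genes (0.03). Nor was any of 10 tested RIDD targets of 16 listed (-0.06) or 24 targets of ATF4 and CHOP (0.06). Over all genes 0.142% were called. The chaperone gene Hspa5 was at 1325 ± 44.4 CPM in Xbp1fl and 1365 ± 181 CPM in Xbp1flIre1fl (0.04 ± 0.09, adjusted p = 0.973) and the XBP1 target Dnajb9 at 42.7 ± 4.16 and 41.1 ± 6.18 CPM. The smallest p among these lists was that of Pdia4, an ER disulfide isomerase. It was at 188, 183, 186 and 179 CPM in Xbp1fl and 224, 200, 216 and 229 CPM in Xbp1flIre1fl, without overlap (0.24 ± 0.06, adjusted p = 0.245). DESeq2 called it (adjusted p = 0.00933). Manf, a secreted ER stress protein, had 0.21 and the ER chaperone gene Hsp90b1 0.21. Of the 40 genes 5 had an unadjusted p under 0.05, all higher, against 4.1% of all genes.

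Among RIDD targets Bloc1s1, a frequently used readout of IRE1 cleavage, was at 25, 24.8, 24.3 and 22.8 CPM in Xbp1fl and at 24.2, 26.3, 22.1 and 12 CPM in Xbp1flIre1fl (-0.20 ± 0.20, adjusted p = 0.944). The low value was that of Xbp1flIre1fl replicate 4. The immature library of the same number was also the lowest of its group, at 12.4 CPM against 19.9 to 22.4 CPM in the other three. In the same pair of libraries Dnajb9 was lowest too, at 32.7 CPM (mature, others 41.0 to 47.4) and 20.6 CPM (immature, others 27.3 to 31.2). Bloc1s1 and Dnajb9 were set side by side after their values were seen.

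Genes of cDC1 identity and maturation were not called either. Over the 26 identity genes the median was -0.06 and over the 44 maturation genes -0.08, with 0 called in each, against 0.142% of all genes. Ccr7, the chemokine receptor switched on in maturation, was at 8845, 8001, 11581 and 9918 CPM in Xbp1fl and at 11921, 6574, 13425 and 4988 CPM in Xbp1flIre1fl (-0.06 ± 0.36, adjusted p = 0.997). The Xbp1flIre1fl libraries spread around the Xbp1fl libraries, with replicates 2 and 4 below all of them and replicates 1 and 3 above all. Summed maturation genes gave the same picture, at 42525, 25875, 45560 and 21784 CPM in Xbp1flIre1fl against 31830 to 41553 CPM in Xbp1fl. Identity genes summed to 14715 and 12842 CPM in replicates 1 and 3 and to 18584 and 17437 CPM in replicates 2 and 4. Xbp1fl libraries were at 16480 to 17467 CPM. Replicates 1 and 3 were thus below all of them and replicate 2 above all, while replicate 4 was within their range. In bulk RNA fewer cells of a type and less RNA per cell cannot be told apart.

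The count of calls changed when 2 libraries were left out. Without Xbp1flIre1fl replicates 2 and 4, an alternative added after their values were seen, 153 of 11978 genes were called, 52 higher and 101 lower, all 17 among them. Of the 153, 25 lay on chromosome 11 and 18 within 20 Mb of Ern1. The libraries left out are the Xbp1flIre1fl libraries with the highest sums of identity genes and the lowest sums of maturation genes, so the direction of those genes in this alternative follows from the choice. Leaving them out changes the mean, the spread and the number of libraries together, and their parts were not tested. With all libraries Xcr1, the receptor that draws cDC1s to XCL1, was at 554 to 623 CPM in Xbp1fl and 434, 709, 437 and 689 CPM in Xbp1flIre1fl. With replicate 2 alone left out 30 genes were called.

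Lipid genes of the LXR pathway, named in the study's title, were not called. LXRs are nuclear receptors for oxysterols that raise genes for cholesterol efflux. Of 24 listed LXR targets 20 were tested (median 0.08). Pltp, a phospholipid transfer protein, had the smallest p, with 6.95 ± 0.808 CPM in Xbp1fl and 12.2 ± 4.35 CPM in Xbp1flIre1fl (0.81 ± 0.21, adjusted p = 0.304). It passed with Xbp1flIre1fl replicate 2 left out (1.01, adjusted p = 0.0116). The efflux pump gene Abca1 was at 8.07, 5.96, 7.21 and 4.86 CPM in Xbp1fl and 12.3, 3.54, 16.3 and 12.5 CPM in Xbp1flIre1fl, with replicate 2 below all other libraries (0.78 ± 0.45, adjusted p = 0.863). Abcg1 (-0.04), Apoe (-0.06), Nr1h2 (-0.06) and Nr1h3 (0.29) had adjusted p of 0.938 to 0.987. The 27 tested genes of cholesterol synthesis and uptake had a median of -0.18, with 22 below 0 and 0 called.

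Cell cycle genes lay mostly above 0. Of 28 members 27 were above 0, with a median of 0.29, and 19 had an unadjusted p under 0.05, all higher, against 4.1% of all genes, but 0 were called. Top2a, the mitotic topoisomerase, was at 60.2, 59.9, 58.5 and 73.6 CPM in Xbp1fl and 75.7, 98.5, 78.8 and 93.0 CPM in Xbp1flIre1fl, without overlap (0.46 ± 0.10, adjusted p = 0.154). It was called with the replicate block, with DESeq2 and without Xbp1fl replicate 4. Mki67 alone was below 0 (-0.17). The summed list was at 1150 to 1488 CPM in Xbp1fl and 1410, 1690, 1347 and 1785 CPM in Xbp1flIre1fl, so the high libraries were replicates 2 and 4, those lowest in maturation genes. The median was 0.10 in immature cells, and 0.13 in mature cells without Xbp1flIre1fl replicates 2 and 4.

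Other lists showed smaller or mixed shifts. Of 33 interferon-stimulated genes 8 had an unadjusted p under 0.05, all higher, against 4.1% of all genes, and 22 were above 0 (median 0.17, and 0.34 in immature cells). The smallest p were those of Bst2 (0.31), Ifi27l2a (0.57) and Irgm1 (0.57), with adjusted p of 0.437 to 0.554, while the largest differences were those of Iigp1 (1.34, adjusted p = 0.695) and Oas2 (1.04, adjusted p = 0.863). Among heat shock genes the inducible Hspa1a and Hspa1b and the co-chaperone Dnajb1 had values of -0.51, -0.50 and -0.31 (adjusted p of 0.429 to 0.721), while the list's median was 0.02. All 28 cytosolic ribosomal protein genes were below 0, by little (median -0.07). Their median became -0.06 under upper quartile scaling and -0.04 when only library sizes were used. Medians for MHC class I (-0.04) and class II presentation (0.00), lysosome (0.05), NF-kB (-0.05), respiratory chain (0.02) and glycolysis (0.02) lay near that of all genes. Over all 23 biology lists 0 of 480 tested genes were called by edgeR, against 0.142% of all genes, and 2 by DESeq2 (Pdia4 and Top2a). At that share hardly any call would fall among 480 genes.

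**Figure D4:**
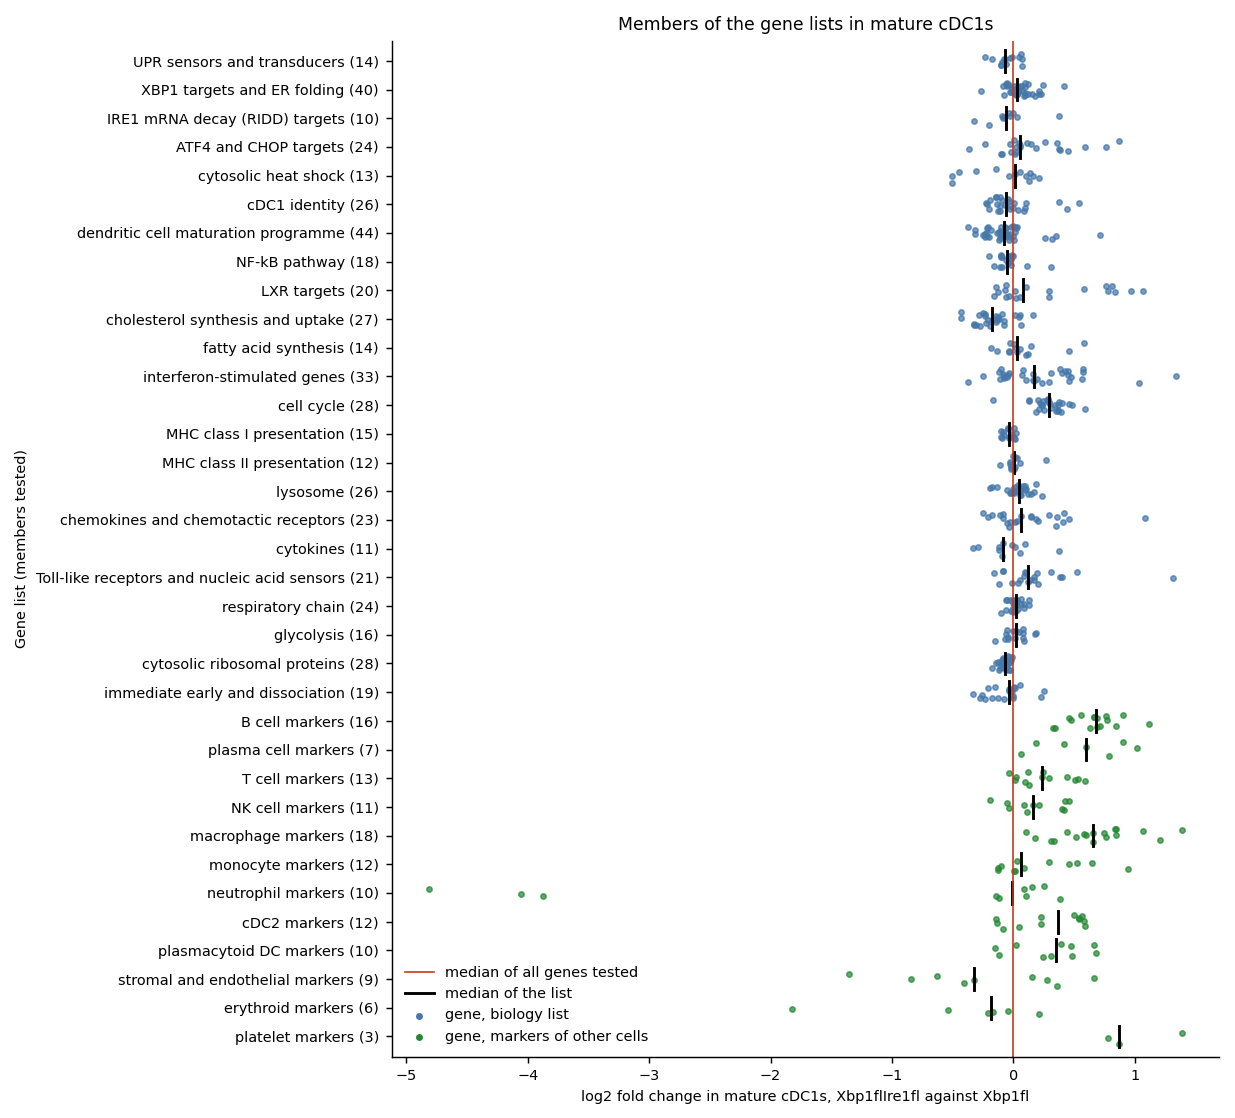
Log2 fold change in mature cDC1s (x axis, Xbp1flIre1fl over Xbp1fl) of each tested member (points) of 23 biology lists (blue) and 12 lists of other cells' markers (green), with the number of members tested. Black bars are list medians and the red line is the median of all genes: cell cycle (0.29) and the B cell (0.68), plasma cell (0.60) and macrophage (0.65), platelet (0.87), cDC2 (0.36) and plasmacytoid DC (0.35) markers lie to the right, and no point shown is a called gene.

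Markers of other cells were present in both genotypes, and 0 of 126 tested members were called (smallest adjusted p 0.392), against 0.142% of all genes. All 16 B cell markers, all 18 macrophage markers and all 7 plasma cell markers were above 0, with medians of 0.68, 0.65 and 0.60. At an unadjusted p under 0.05 there were 3 of the B cell, 3 of the macrophage and 0 of the plasma cell markers, against 4.1% of all genes that were higher at that threshold. The 3 tested platelet markers had the highest median (0.87, all above 0), that of 12 cDC2 markers was 0.36 (9 above 0) and that of 10 plasmacytoid DC markers 0.35 (8 above 0). The T cell and NK cell lists had medians of 0.23 and 0.16, and the stromal and erythroid lists of -0.33 and -0.19. The 12 monocyte markers had a median of 0.06 (9 above 0), and Fcgr4 among them had the smallest adjusted p. Summed B cell markers were at 780, 568, 934 and 469 CPM in Xbp1fl and at 1080, 492, 1524 and 1031 CPM in Xbp1flIre1fl. Summed macrophage markers were at 756 to 928 CPM and at 1178, 650, 1359 and 1213 CPM. In both lists Xbp1flIre1fl replicates 1, 3 and 4 were above all Xbp1fl libraries, while replicate 2 was within their range for B cells and below it for macrophages. No B cell, plasma cell, macrophage or T cell marker found in the table was at 0 in all mature libraries. The part of such cells in the differences above was not tested.

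Of 10 tested neutrophil markers 5 were above and 5 below 0, with a median of -0.01. The granule genes Elane, Prtn3 and Mpo had unadjusted p under 0.05 and lower values in Xbp1flIre1fl, against 2.2% of all genes. Ltf (0.39), Camp (0.25), Ngp (0.15) and S100a8 (0.10) were above 0, and none of the markers was called. Elane had 55, 32, 0 and 33 counts in Xbp1fl and 0, 4, 0 and 0 in Xbp1flIre1fl (adjusted p = 0.400), and Mpo had 304, 155, 1 and 165 counts in Xbp1fl and 25, 8, 3 and 3 in Xbp1flIre1fl. The groups overlapped in both, since Xbp1fl replicate 3 was at or below the Xbp1flIre1fl libraries.

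**Figure D5:**
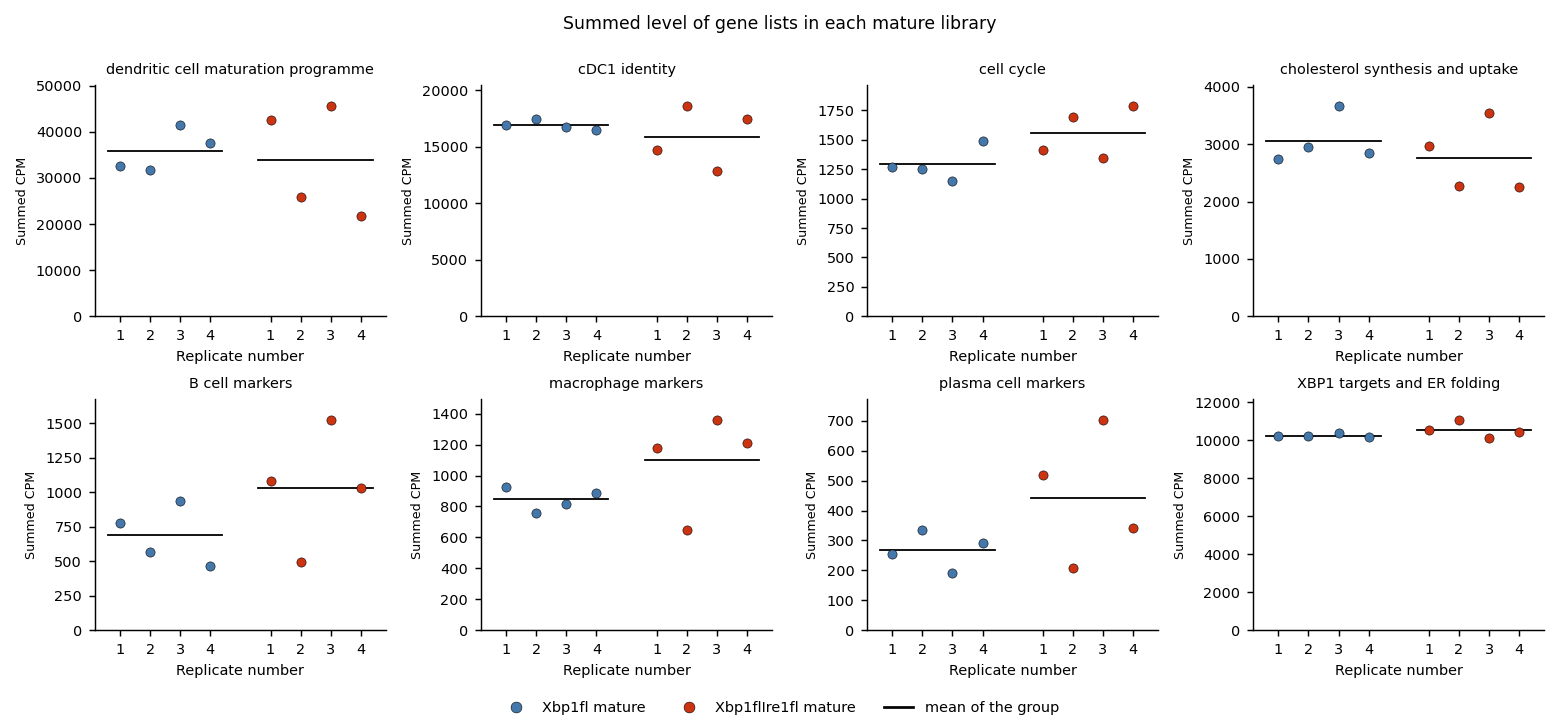
Summed TMM-scaled CPM (y axes, from 0) of 8 gene lists in each mature library (x axis, replicate number), Xbp1fl in blue and Xbp1flIre1fl in red, with the group mean as a line. Xbp1flIre1fl replicates 2 and 4 are lowest in maturation genes (25875 and 21784 CPM) and highest in cell cycle genes (1690 and 1785 CPM), and replicate 3 is highest in B cell and macrophage markers.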

How the data were processed

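Of the 16 libraries, the 8 of mature cDC1s were compared between genotypes. Reads were prepared with FastQC 0.11.4, Trimmomatic 0.35, TopHat2 2.1.0 and SAMtools 0.1.19 on mm10, and limma 3.42.2 was used, per the submitters' processing notes. The counter, annotation and use of strand are not given in the sources used here. The authors deposited raw counts per gene (24421 genes) and a table of normalized log2 values (11843 genes), which served as an alternative. The deposited log2 values differed from log2 CPM of the counts by a residual SD of at most 0.0298 in each library.

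Counts were scaled by TMM and tested with edgeR 4.0.16 (R 4.3.3): a quasi-likelihood F-test with robust estimation, filterByExpr, 1 mean per genotype and stage over all 16 libraries (12 residual degrees of freedom), and Benjamini-Hochberg adjustment over 11978 genes, with calls at an adjusted p under 0.05. The SE of a log2 fold change is its size divided by the square root of F. No 2 mature libraries of a group were duplicates (chi-square of 9.21 to 59.3 per degree of freedom). The chi-square was 11.2 to 59.3 between Xbp1flIre1fl and 9.21 to 16.4 between Xbp1fl libraries, while the test used 1 spread per gene for all groups. Same-numbered libraries of a genotype pair across stages, since all 8 correlations of their deviations over 7881 genes lay at 0.290 to 0.604. Those of other numbers lay at -0.407 to 0.243. Across genotypes mature libraries of the same number do not pair (-0.185 to 0.382, against -0.471 to 0.445 for other numbers). The value of 0.445 was that of the female libraries, Xbp1fl replicate 4 and Xbp1flIre1fl replicate 3. The part of sex in these correlations was not tested. The main fit had no term for the pairing across stages and took all 16 libraries as independent. For both reasons its p-values for the contrasts within a stage may be too small. For the interaction, leaving out a positive pairing can instead make p-values too large. Positions are those of GENCODE M21 on GRCm38, with RefSeq for genes matched by symbol or synonym. The scripts were tested on simulated data.

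Members and gene lists were chosen with earlier results of these data known. Called genes were named where they reached 5 CPM in the higher genotype and had a symbol that is not a clone or predicted name (up to 12 a direction), with the 3 members of each biology list and the 2 of each marker list of smallest adjusted p, and a set of genes of the pathways studied. Alternatives were other scalings, no filter on low counts, DESeq2 1.42.0, limma 3.58.1, the mature libraries alone, a replicate block, each library left out and, added after seeing the data, a sex covariate, 2 libraries left out together and a block within genotype.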

Additional observations from a re-analysis of the deposited data

Results flagged for a closer look

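Dixon's test was run in 112 groups of 4 mature libraries. Each group held the values of a summed gene list, of a single called gene, or of Ern1 or Xbp1. In 7 groups, all of summed lists, 1 library lay apart from the rest by more than Dixon's critical value for 4 samples. Chance sets apart about 1 in 20 such groups. In Xbp1flIre1fl, replicate 4 was low in ATF4 and CHOP targets (2402.5 CPM, group up to 3048 CPM) and high in platelet markers (28.9 CPM, group from 3.47 CPM). Replicate 4 was also high in pancreatic enzyme genes, a list added after seeing the data (284 CPM, group from 0.954 CPM). Xbp1flIre1fl replicate 2 was high in MHC class II presentation genes (80699 CPM, group from 68194 CPM) and in neutrophil markers (51.6 CPM, group from 6.56 CPM). In Xbp1fl, replicate 4 was low in lysosome genes (16407 CPM, group up to 21240.0 CPM) and in stromal and endothelial markers (53.9 CPM, group up to 66.9 CPM).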

How the results depend on the processing

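The 17 calls in mature cDC1s kept their sign in all 29 alternatives, and 6 (Arf2, Arl5c, Crnkl1, Cyb561, Naa20 and Rps4l) were called in each of them. Leaving out libraries could not reverse a sign, since the mature libraries of the genotypes did not overlap in any of the 17. The count of 17 became 10 with the 8 mature libraries alone, 7 with the replicate block on those 8, 36 with DESeq2 and 153 without Xbp1flIre1fl replicates 2 and 4. Leaving out 1 library gave 15 to 30. The replicate block on all 16 libraries gave 21 and, though numbers do not pair libraries across genotypes, no change past 1.5 times. In immature cDC1s the count of 16 became 40 with DESeq2, 31 with limma's voom and quality weights, and 25 without those 2 mature libraries, with 11 to 21 when 1 library was left out. The interaction gave 0 calls in every alternative, the replicate block within genotype included. Members of gene lists called were 0, but 1 with the replicate block (Top2a, adjusted p = 0.0365), 2 with DESeq2 (Pdia4 and Top2a), 0 to 2 when 1 library was left out and 14 without Xbp1flIre1fl replicates 2 and 4, where the choice of libraries fixes the direction of identity and maturation genes. Tmem88 was called in 21 of the 29 alternatives, Acsf2 in 22 and 3830403N18Rik in 23. With 4 libraries a genotype the median 95% interval reached 0.27 to either side of its estimate.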
